A study of Homo sapiens with 6 samples.

Results

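Amino acid transporters of the plasma membrane bring in the amino acids that a cell uses for protein, glutathione and nucleotides, and exchange them for others. The 10 genes described here were chosen with earlier results of these data known, and taken by symbol from a table of 23710 genes. They were SLC7A5, SLC3A2, SLC7A6, SLC7A7, SLC7A1, SLC38A1, SLC38A2, SLC1A3, SLC1A4 and SLC1A5. All 10 were in the table and all 10 passed the filter on low counts. The cells were THP-1, a monocytic line from a human leukaemia, grown in RPMI medium with fetal bovine serum, and their RNA was sequenced in bulk. The treated group was exposed to 10 uM mebendazole, a benzimidazole that binds tubulin, and the control group to the vehicle DMSO, each for 6 h. Each group has 3 libraries in 3 labelled sample pairs. The labels do not say whether a pair was a separate culture, so the spread among the libraries could be technical. The p-values from edgeR rest mostly on a spread pooled over genes, with 2 residual against 61 prior degrees of freedom. That pooled spread comes from the same libraries, so it could be technical too.

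SLC3A2, also named CD98 heavy chain, carries no transport itself. It binds SLC7 light chains and brings them to the cell surface, where SLC7A5 exchanges large neutral amino acids such as leucine for glutamine, and SLC7A6 and SLC7A7 exchange cationic for neutral amino acids. SLC7A1 takes up arginine and lysine without a heavy chain. SLC38A1 and SLC38A2 take up small neutral amino acids, glutamine among them, together with sodium, and SLC38A2 is known to be induced when amino acids run short. Of the SLC1 genes, SLC1A5 and SLC1A4 encode exchangers of small neutral amino acids and SLC1A3 a transporter of glutamate and aspartate. Several of these genes are known targets of ATF4, the transcription factor of the amino acid response.

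Library totals ranged from 13892038 to 15476356 counts with mebendazole and from 13420558 to 15727667 with DMSO. Levels are in CPM, read counts divided by TMM-scaled library totals, with the mean ± SD over 3 libraries, and a fold change is mebendazole over DMSO from edgeR. All 8 of the monocyte markers LYZ, CD33, MPO, CSF1R, ITGAM, CD14, SPI1 and PTPRC were detected, and their sum was 1839 to 1886 CPM with mebendazole and 1573 to 1655 CPM with DMSO. Of these, 5 fell (CD33 by 1.76, CD14 by 1.06, LYZ by 0.70, ITGAM by 0.63 and CSF1R by 0.42 on the log2 scale), SPI1 (0.98) and PTPRC (1.00) rose, and MPO was not called. Their part in the transporter results was not tested. The 4 T cell markers summed to 4.49 to 6.44 CPM with mebendazole and to 0.411 to 0.657 CPM with DMSO. That sum is nearly all CD8A, with 212 reads with mebendazole and 16 with DMSO, while CD3D, CD3E and CD3G had 0 reads with mebendazole and 5, 1 and 2 with DMSO. In bulk RNA, fewer cells of a kind and less RNA per cell cannot be told apart.

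The 10 genes did not move as a block. SLC38A2, SLC7A5, SLC3A2 and SLC38A1 rose, SLC1A3, SLC7A7 and SLC1A4 fell, and SLC7A1, SLC7A6 and SLC1A5 lay within 10% of their DMSO level. By edgeR's quasi-likelihood test (adjusted p under 0.05), 9 of the 10 passed, 5 higher and 4 lower, but the change of 2 of these 9, SLC1A5 and SLC7A1, was small and depended on the processing. Of all 13591 genes tested 82.3% passed, 40.6% higher and 41.7% lower, so a call alone sets no gene of this table apart. Among the 9502 genes with a mean of 10 CPM upwards, as all 10 transporter genes had, 86.7% passed. Against a change of at least 1.5-fold, 6 of the 10 passed, 3 higher (SLC38A2, SLC7A5, SLC3A2) and 3 lower (SLC1A3, SLC7A7, SLC1A4), where 42.5% of all genes and 39.8% of those with the higher means did. The median log2 fold change of the 10 was 0.07, against -0.03 over all genes, and the median size of the change was 0.98 against 0.60. The 10 genes were chosen with earlier results of these data known, so these comparisons are no independent evidence that they stand out. The CPM summed over the 10 genes lay between 2250 and 2299 with mebendazole and between 1356 and 1435 with DMSO. That sum rests on the TMM scaling and is weighted towards the genes with most reads. SLC38A2 alone had a mean of 642.5 CPM with mebendazole and 165.3 CPM with DMSO.

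**Figure D1:**
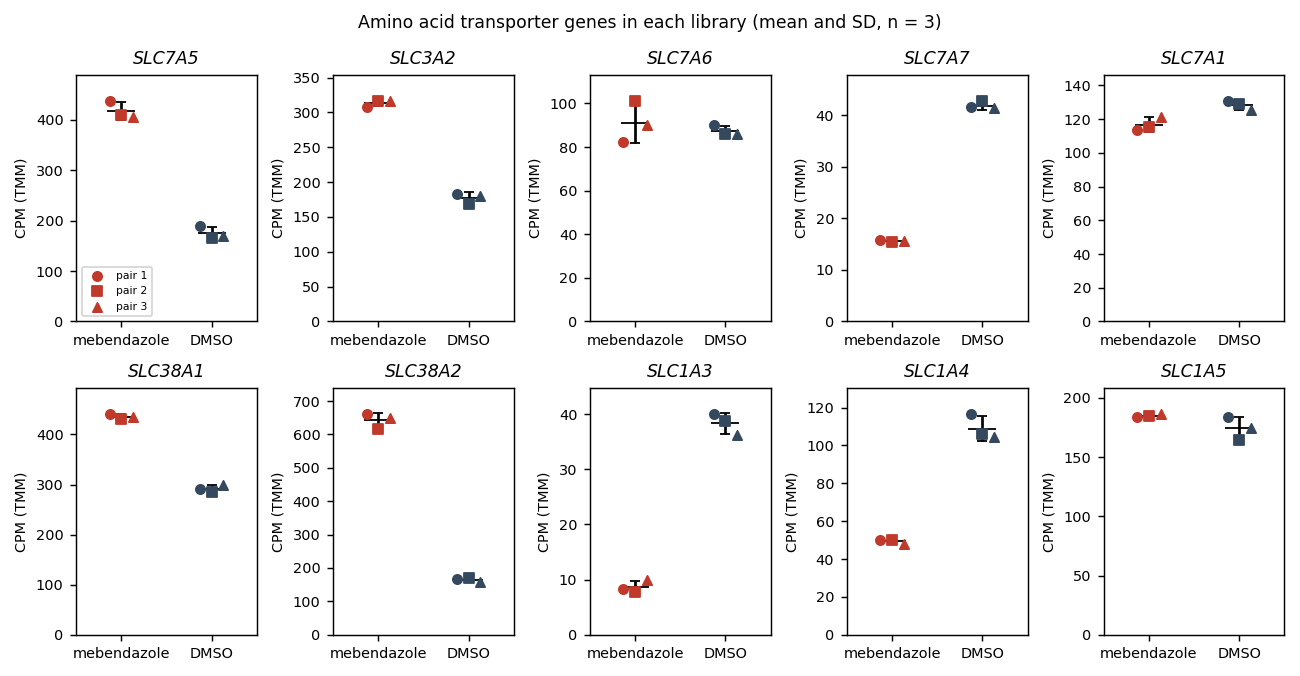
TMM-scaled CPM of the 10 transporter genes in each library, with mebendazole on the left and DMSO on the right of each panel. Points are libraries, the marker shape gives the sample pair, and bars are the mean and SD (n = 3). The groups are apart for 8 genes and overlap for SLC7A6 and SLC1A5.

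SLC3A2, the heavy chain, rose. It had 307.9, 316.3 and 315.7 CPM with mebendazole, against 183.4, 168.0 and 179.8 CPM with DMSO. Every mebendazole library lay above every DMSO library. The log2 fold change was 0.82 (SE 0.04, adjusted p = 1.7e-31, edgeR, n = 3 per group), and the 3 pairs gave 0.75 to 0.91.

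SLC7A5, the leucine and glutamine exchanger, rose more than its heavy chain. Its levels were 437.1, 409.3 and 404.4 CPM with mebendazole and 190.0, 166.2 and 170.4 CPM with DMSO. The groups did not overlap, and the level with mebendazole was 2.38 times that with DMSO (log2 fold change 1.25, SE 0.03, adjusted p = 1.5e-42, edgeR). SLC7A5 has partial pseudogene copies, and reads could be split among them. SLC7A5P1 held 42 reads with mebendazole and 72 with DMSO, and SLC7A5P2 held 36 and 24, against 16644 and 8241 for SLC7A5.

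The light chains for cationic amino acids did not follow. SLC7A7 fell to 15.7, 15.4 and 15.6 CPM with mebendazole, against 41.5, 42.8 and 41.3 CPM with DMSO. That is a log2 fold change of -1.43 (SE 0.07, adjusted p = 1.4e-28, edgeR), with no overlap. SLC7A6, which has the same kind of substrate, had 82.4, 101.1 and 90.0 CPM with mebendazole and 90.0, 86.2 and 86.2 CPM with DMSO. Its groups overlapped and it did not pass the test (log2 fold change 0.06, SE 0.05, adjusted p = 0.27, edgeR). The sign of SLC7A6 turned with library totals (-0.19) and without pair 2 (-0.02), and it passed as higher without pair 1 (0.15, adjusted p = 0.00567). SLC7A6OS, a gene on the opposite strand that shares bases with SLC7A6, was at 9.90 ± 1.51 CPM with mebendazole and 9.31 ± 1.19 CPM with DMSO. The kit does not mark strand, so reads in shared bases cannot be assigned.

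SLC7A1, the arginine and lysine carrier, was at 113.3, 115.4 and 121.5 CPM with mebendazole and at 130.7, 129.1 and 125.1 CPM with DMSO. Every treated library was lower, and the log2 fold change was -0.14 (SE 0.04, adjusted p = 0.0022, edgeR), but DESeq2 did not call it (adjusted p = 0.0871). With library totals it was -0.38.

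Both sodium-coupled carriers rose, by unequal amounts. SLC38A2 reached 660.2, 617.1 and 650.1 CPM with mebendazole, against 168.0, 168.8 and 159.2 CPM with DMSO. Among the 10 genes it had the largest rise, 3.89-fold (log2 fold change 1.96, SE 0.03, adjusted p = 9.5e-54, edgeR), and 1.71 with library totals. SLC38A1, its neighbour on chromosome 12 with no protein-coding gene between them in RefSeq, had 440.3, 431.6 and 434.5 CPM with mebendazole and 291.3, 285.8 and 298.3 CPM with DMSO. Its groups did not overlap either, and its log2 fold change was 0.58 (SE 0.03, adjusted p = 2.5e-25, edgeR). It did not pass against a 1.5-fold change (adjusted p = 0.607). The next gene in the row, SLC38A4, had 0 reads with mebendazole and 1 with DMSO.

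The SLC1 genes split by member. SLC1A3, the glutamate and aspartate carrier, fell furthest of the 10, to 8.36, 7.82 and 9.92 CPM with mebendazole, against 39.96, 38.8 and 36.3 CPM with DMSO. Its log2 fold change was -2.14 (SE 0.08, adjusted p = 7.7e-34, edgeR), on 346 reads with mebendazole and 1797 with DMSO. SLC1A4, which carries alanine, serine, cysteine and threonine, had 50.2, 50.3 and 47.8 CPM with mebendazole and 116.5, 106.0 and 104.4 CPM with DMSO. It fell by 1.14 on the log2 scale (SE 0.05, adjusted p = 4.3e-32, edgeR), and the groups did not overlap.

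SLC1A5, the glutamine exchanger, changed little if at all. It had 183.7, 185.1 and 186.2 CPM with mebendazole and 183.9, 164.5 and 174.9 CPM with DMSO, and the groups overlapped. Its log2 fold change of 0.09 (SE 0.04, adjusted p = 0.034, edgeR) lost its call in DESeq2 (adjusted p = 0.0702) and without pair 2 or pair 3 (adjusted p = 0.215 and 0.158). With the pairing left out the adjusted p was 0.0602, and with library totals the sign turned (-0.16). The call also depended on the filter: edgeR's adjusted p was 0.106 with no filter and 0.198 with a mean of 10 CPM required.

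**Figure D2:**
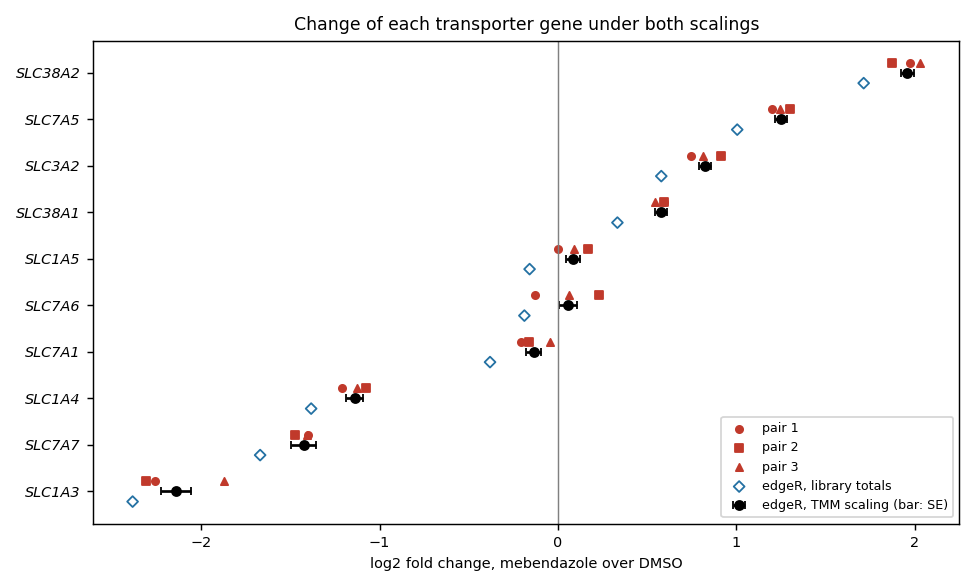
The log2 fold change, mebendazole over DMSO, of each of the 10 genes. Black points with bars are edgeR's value and SE under TMM, coloured markers are the 3 sample pairs, and open diamonds are edgeR's value with library totals. Library totals move every gene to the left; SLC1A5 and SLC7A6 then lie below 0, at -0.16 and -0.19, while SLC38A2 stays at 1.71 and SLC1A3 at -2.39.

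The scaling turned the sign of the small changes of SLC1A5 and SLC7A6, since library totals shift the median gene by -0.24 on the log2 scale. SLC7A1 stayed lower (-0.38 with library totals), and SLC7A6 also turned under TMM without pair 2 (-0.02). With library totals, 4 of the 10 genes passed as higher and 6 as lower. Among all called genes 36.4% were then higher, against 49.3% with TMM. Without correction for that shift, 8 of the 10 had the same sign under TMM, library totals and RLE size factors, and SLC1A5 and SLC7A6 turned with library totals. Of all genes tested, 82.4% had groups that did not overlap, against 8 of these 10.

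Levels of different genes were compared per kilobase of exon. With mebendazole, SLC38A2 stood first at 128.3 CPM per kilobase, then SLC3A2 (118.1), SLC7A5 (90.9), SLC1A5 (55.5), SLC38A1 (46.7), SLC7A1 (15.9), SLC7A6 (14.3), SLC1A4 (10.5), SLC7A7 (5.77) and SLC1A3 (2.09). With DMSO the order was SLC3A2 (66.7 CPM per kilobase), SLC1A5 (52.3), SLC7A5 (38.3), SLC38A2 (33.0), SLC38A1 (31.3), SLC1A4 (23.2), SLC7A1 (17.5), SLC7A7 (15.5), SLC7A6 (13.8) and SLC1A3 (9.19). Neighbours in these orders whose libraries overlapped were SLC7A1 and SLC7A6 with mebendazole and SLC38A2 and SLC38A1 with DMSO. SLC38A2 stood above SLC1A5 and SLC7A5 in the treated cells and below them in the controls. With the longest transcript as the length, SLC3A2 (141.0) was above SLC38A2 (131.4) with mebendazole, so the order of these 2 rests on the length chosen. With DMSO that length put SLC38A1 (36.2) above SLC38A2 (33.8), and the libraries of SLC7A5 and SLC38A1, and of SLC7A1 and SLC7A7, then overlapped.

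The make-up of the light chains that share SLC3A2 shifted towards SLC7A5 and SLC7A11, the cystine and glutamate exchanger. Among SLC7A5, SLC7A6, SLC7A7, SLC7A8, SLC7A10 and SLC7A11, taken per kilobase, SLC7A5 made up 68.6% ± 1.68 with mebendazole and 53.5% ± 1.65 with DMSO (SD, n = 3 each). SLC7A11 made up 16.1% ± 0.609 with mebendazole and 3.84% ± 0.335 with DMSO. SLC7A6 had a share of 10.8% ± 1.21 with mebendazole and 19.3% ± 0.307 with DMSO, and SLC7A7 a share of 4.36% ± 0.0785 and 21.7% ± 1.123. A share also falls when another light chain rises. SLC7A6 itself was at 14.3 CPM per kilobase with mebendazole and 13.8 with DMSO. The libraries of the groups did not overlap in these 4 shares, which were not tested. SLC7A8 and SLC7A10 were under 1% in every library.

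The sum of the light chains kept close to the heavy chain. It was 1.17, 1.11 and 1.09 times the SLC3A2 level per kilobase with mebendazole and 1.08, 1.10 and 1.03 times with DMSO, and these ranges overlapped. With the longest transcript as the length, the mean ratios were 0.953 with mebendazole and 0.925 with DMSO. These are RNA levels, and neither protein nor assembled transporter was measured.

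**Figure D3:**
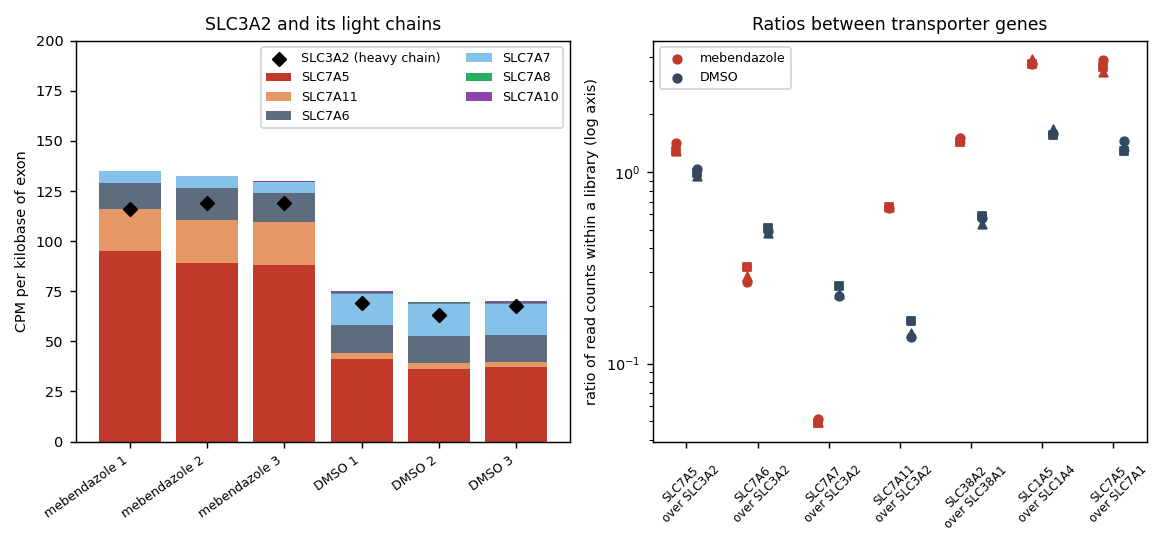
Left, stacked bars of the 6 light chain genes and diamonds for the heavy chain SLC3A2, in CPM per kilobase of exon, for each library. Right, ratios of read counts between pairs of transporter genes within a library on a log axis, with mebendazole left of DMSO for each ratio and marker shapes for the sample pair. The bars reach 130 to 135 CPM per kilobase with mebendazole and 69.6 to 74.9 with DMSO, and none of the 7 ratios overlaps between the groups.

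A ratio of 2 genes within a library does not depend on the scaling, so 7 such ratios were compared by an exact two-sided permutation test. Each ratio repeats the difference between the fold changes of its 2 genes, so it adds no separate support for them. Among single genes, 82.4% had groups that did not overlap, and that share was not computed for other gene pairs. With 3 libraries against 3 this exact permutation test cannot go below p = 0.1, and all 7 ratios gave p = 0.1 (0.1 after Benjamini-Hochberg adjustment) because none overlapped. SLC7A5 had 1.42, 1.29 and 1.28 reads per SLC3A2 read with mebendazole and 1.04, 0.989 and 0.948 with DMSO. The ratio was thus 1.34 times as high with mebendazole. SLC7A7 over SLC3A2 was at 0.0497 ± 0.00121 with mebendazole and 0.237 ± 0.0154 with DMSO, and SLC7A6 over SLC3A2 at 0.291 ± 0.0264 and 0.494 ± 0.0170. SLC7A11 over SLC3A2 was at 0.655 ± 0.00313 with mebendazole and 0.150 ± 0.0152 with DMSO.

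Within subfamilies the members did not move in step. SLC38A2 had 1.4995, 1.4297 and 1.4963 reads per SLC38A1 read with mebendazole and 0.577, 0.591 and 0.534 with DMSO, with no overlap. Per kilobase of exon, which allows the genes' levels to be compared, SLC38A2 was at 2.75 times the SLC38A1 level with mebendazole and at 1.06 times with DMSO. SLC1A5 had 3.74 ± 0.130 reads per SLC1A4 read with mebendazole and 1.60 ± 0.0647 with DMSO. SLC7A5 had 3.58 ± 0.266 reads per SLC7A1 read with mebendazole and 1.37 ± 0.0832 with DMSO. Each of these 3 ratios was 2.34 to 2.61 times as high with mebendazole.

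Promoter sequence is shown for the genes that hold letters of the C/EBP-ATF response element (CARE), the site through which ATF4 acts on amino acid response genes. RefSeq windows on GRCh38.p14, from 250 bases before to 50 after a start site, matched all 10 genes by symbol, with 20 windows in all. The letters TGATGNAA, or TTNCATCA on the other strand, were in 6 of the 20 windows (30%), 1 in each of 6 genes. Over all 35116 RefSeq windows 3.62% held them, and over all 27305 genes 4.46% did. Each line below gives 40 bases 5′ to 3′ on the gene's strand, with the matching letters in capitals.
SLC3A2: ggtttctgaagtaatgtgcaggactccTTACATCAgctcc
SLC38A1: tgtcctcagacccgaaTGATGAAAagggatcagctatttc
SLC1A5: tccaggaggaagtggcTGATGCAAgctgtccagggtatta
SLC1A4: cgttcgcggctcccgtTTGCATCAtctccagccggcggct
SLC1A3: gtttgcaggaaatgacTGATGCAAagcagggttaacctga
SLC7A1: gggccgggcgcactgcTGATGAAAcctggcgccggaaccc

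The SLC3A2 stretch is chr11:62881709-62881748 on the plus strand, and its match begins 37 bases after the start site. The SLC38A1 stretch is chr12:46266497-46266536 (minus strand) and the SLC1A5 stretch chr19:46784888-46784927 (minus strand). The SLC1A4 stretch is chr2:64989376-64989415 (plus strand), the SLC1A3 stretch chr5:36596352-36596391 (plus strand) and the SLC7A1 stretch chr13:29595658-29595697 (minus strand). Of the 6 genes with a match, SLC3A2 and SLC38A1 rose, SLC1A4 and SLC1A3 fell, and the small changes of SLC1A5 (0.09 on the log2 scale) and SLC7A1 (-0.14) depended on the processing. The start sites in use in these cells were not measured, and a match is a run of letters, not a bound site.

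SLC38A2, the gene with the largest rise, has 1 window in RefSeq, which ends 50 bases after the start site. The rest of the gene was not searched, so a motif there would be missed. The window is shown whole because none of the 4 motifs searched is in it.
SLC38A2: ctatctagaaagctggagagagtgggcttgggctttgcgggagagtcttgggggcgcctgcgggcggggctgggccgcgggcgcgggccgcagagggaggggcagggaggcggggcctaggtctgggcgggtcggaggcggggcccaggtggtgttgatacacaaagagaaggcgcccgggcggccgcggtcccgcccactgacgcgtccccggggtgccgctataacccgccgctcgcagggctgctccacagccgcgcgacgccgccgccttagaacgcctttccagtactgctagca

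It lies at chr12:46372724-46373023 on the minus strand and is 72% G and C. The other motifs were the E-box CACGTG (3 of 20 member windows, 7.26% of all), the AP-1 site TGANTCA (3 of 20, 7.71% of all) and the core of the antioxidant response element, TGACNNNGC or GCNNNGTCA on the other strand (7 of 20, 13.3% of all). In SLC3A2 the AP-1 letters lie inside those of the antioxidant element.

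Of 35 other transporters of the plasma membrane, 13 had enough reads to test. In this list 4 rose, each by more than SLC38A2, and 7 fell, and its median change was -0.91 on the log2 scale. The share called was 84.6%, against 82.3% of all genes tested (40.6% higher and 41.7% lower). This list and those below were chosen with earlier results of these data known, so such shares and medians are no independent support. SLC16A10, which carries aromatic amino acids, had 5921 reads with mebendazole and 98 with DMSO, or 148.4 ± 4.14 and 2.10 ± 0.423 CPM (log2 fold change 6.15). SLC43A2, a carrier of leucine and other large neutral amino acids, rose to 353.5 ± 8.20 CPM with mebendazole, against 55.3 ± 1.92 CPM with DMSO. SLC7A11 was at 205.2 ± 4.04 CPM with mebendazole and 26.5 ± 1.42 CPM with DMSO, and SLC6A6, the taurine carrier, at 345.6 ± 35.5 and 62.5 ± 2.19 CPM.

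Carriers related to SLC7A5 and SLC38A2 were among those that fell. SLC43A1, another leucine carrier, was at 9.02 ± 0.641 CPM with mebendazole and 35.5 ± 0.883 CPM with DMSO. SLC38A5, of the same family as SLC38A2, was at 3.39 ± 0.152 CPM with mebendazole and 22.1 ± 1.31 CPM with DMSO. SLC7A8, a light chain with substrates like those of SLC7A5, had 8 reads with mebendazole and 120 with DMSO (log2 fold change -3.62, SE 0.38, adjusted p = 2.3e-13, edgeR).

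Lysosomal transporters were split: 3 of the 9 tested rose and 4 fell, or 77.8% called against 82.3% of all genes tested. Library totals gave 2 higher and 5 lower here, and 4181 higher and 7319 lower over all 13591 genes tested. MFSD12, which serves cysteine import into lysosomes, was at 287.3 ± 9.63 CPM with mebendazole and 61.0 ± 1.36 CPM with DMSO, and the amino acid carrier SLC36A4 was at 43.9 ± 3.15 and 18.6 ± 1.53 CPM. SLC36A1 (-0.53), SLC15A3 (-0.50), SLC15A4 (-0.34) and PQLC2 (-0.31) fell on the log2 scale. SLC38A9, the lysosomal arginine sensor, did not pass the test, at 17.2 ± 3.94 CPM with mebendazole and 16.2 ± 0.962 CPM with DMSO.

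**Figure D4:**
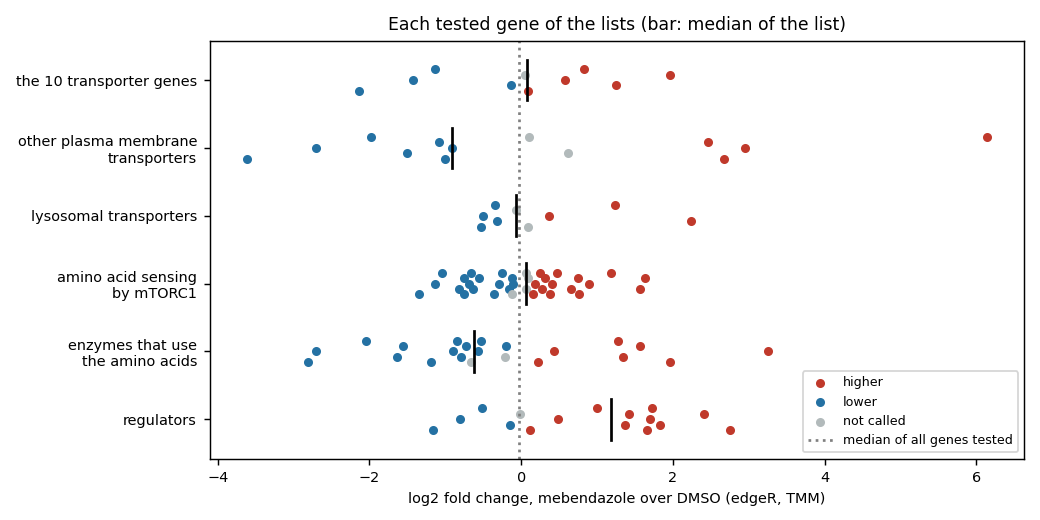
The log2 fold change, mebendazole over DMSO (edgeR, TMM), of each tested gene in 6 lists, coloured by its call. Bars are list medians and the dotted line is the median of all genes tested (-0.03). The medians run from -0.91 for the other plasma membrane transporters to 1.19 for the regulators, and every list holds genes called in both directions.

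Genes by which mTORC1, the growth kinase complex, senses amino acids also went both ways. Of these, 35 were tested, 15 higher and 16 lower by TMM and 10 higher and 21 lower by library totals. Their median on the log2 scale was 0.06. By TMM 88.6% of them were called, where 82.3% of all genes tested were. By library totals, 4181 of all 13591 genes tested were called higher and 7319 lower. SESN2, a leucine sensor, was at 41.5 ± 1.23 CPM with mebendazole and 14.03 ± 0.263 CPM with DMSO. On the log2 scale FNIP1 (1.19), RPTOR (0.89) and RHEB (0.75), which belong to the complex or act upstream of it, rose, and NPRL3 (-1.14) and SEH1L (-0.82), subunits of the GATOR complexes, fell.

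Enzymes that use these amino acids were higher in 7 and lower in 13 of 22 cases, and the median of their log2 fold changes was -0.62. Calls thus covered 90.9% of this list and 82.3% of all genes tested (40.6% higher and 41.7% lower). GLUL, which makes glutamine, was at 560.4 ± 20.1 CPM with mebendazole and 222.0 ± 4.54 CPM with DMSO. KYNU of tryptophan breakdown (3.25) and BCAT1, a branched-chain aminotransferase (1.57), rose on the log2 scale. The proline synthesis genes ALDH18A1 (-2.81) and PYCR1 (-2.71) fell.

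Regulators of transporter genes or proteins were mostly higher, 11 against 4 lower among 16 tested (10 against 6 with library totals). Their median on the log2 scale was 1.19. Over all genes tested 82.3% were called, 40.6% higher and 41.7% lower, against 93.8% called in this list. With library totals 4181 of all 13591 genes tested were called higher and 7319 lower. This list too was chosen with earlier results of these data known, so its excess of higher genes is no independent support. ATF4 was at 574.5 ± 4.99 CPM with mebendazole and 286.9 ± 10.3 CPM with DMSO. Its target TRIB3 (1.70), the related factors ATF3 (2.75) and CEBPB (2.41), and the stress kinase gene EIF2AK3 (1.83) rose on the log2 scale. So did NFE2L2 (1.72), a known regulator of SLC7A11. Whether these regulators acted on the transporter genes was not tested. Chosen after their values were seen, MYC was at 114.4 ± 2.05 CPM with mebendazole and 199.3 ± 6.65 CPM with DMSO, and ASNS, a target of ATF4, at 17.7 ± 1.19 and 32.9 ± 2.14 CPM.

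Over the 6 libraries, the genes whose centred log2 CPM lay nearest to that of SLC38A2 were PAPSS1, TOX2 and SKIL, at Euclidean distances of 0.0696 to 0.0796 over 9501 genes searched, all at or above 10 CPM on average. Their log2 fold changes were 1.97 to 2.04, and that of SLC38A2 was 1.96. Those nearest to SLC1A3 were PAQR8, MTL5 and MECR, at 0.158 to 0.179. Theirs were -2.25 to -2.05, and that of SLC1A3 was -2.14.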

How the data were processed

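RNA was sequenced from 6 libraries (Illumina TruSeq RNA v2, per the labels' protocols). The authors deposited 1 table of raw, whole-number counts by gene symbol, with a column for each sample. STAR, bedtools, HTSeq, DESeq2 and hg19 are named, without versions, per the submitters' processing notes. For the annotation and the strand setting, the sources used here give nothing. The members and gene lists were chosen with earlier results of these data known.

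The fit used edgeR 4.0.16 (R 4.3.3). After filterByExpr, 13591 genes were scaled by TMM and tested by glmQLFTest, with the sample pair as a term because the labels state pairs, and Benjamini-Hochberg adjustment over all genes. The SE is the log2 fold change divided by the root of its F statistic. It rests on a pooled spread, with 2 residual against 61 prior degrees of freedom. The steps were tested on simulated data with 200 changed genes, as many up as down, and no effect of the pair. With 11192 genes called in the real data, that simulation did not test the scaling or the calls where most genes change. DESeq2 1.42.0 was an alternative. Library totals limit precision to counting error and the spread over 3 libraries. No replicates agreed within sampling noise (chi-square per degree of freedom at least 1.44). Within pairs, deviations from the group means correlated at -0.008, 0.142 and 0.065.

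Named genes were the 10 members, up to 6 genes by p of each other list with a mean CPM of 10 or more, SLC7A8, the 3 nearest genes in pattern to the largest rise and fall, and genes named as checks. Some genes that this rule names are not reported here. Exon lengths came from GENCODE 29, matched by symbol.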

Additional observations from a re-analysis of the deposited data

How the results depend on the processing

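Across 10 alternatives, 6 of the 10 transporter genes kept their direction and call in every one. The exceptions were SLC7A1, SLC7A6, SLC1A5 and SLC38A1. SLC7A6 reversed with library totals (-0.1884) and without pair 2 (-0.01545, with 0.1476 and a call without pair 1), and SLC1A5 reversed with library totals (-0.1592), the scaling that shifts the median gene by -0.24. SLC38A1 lost its call against a 1.5-fold change, a test that asks for a larger change. Between 7 and 10 of the genes passed in the other alternatives, and 8 with no replicate block, where SLC1A5 lost its call. DESeq2, where 7 passed, called 9734 of all 13591 genes, and library totals, where 10 passed, called 11500. The paired and unpaired fits called 11192 and 11118 genes, and the block changed no other named call. Against a 1.5-fold change 5774 of all genes (42.5%) passed, with 2 of the 9 lysosomal transporters and 13 of the 35 sensing genes. With the filter at a mean of 10 CPM, 7 of 8 other plasma membrane transporters passed, as fewer were tested. Of all 9502 genes tested with that filter, 8258 passed. The 7 count ratios kept their direction in every alternative (exact sign-flip p within pairs = 0.25, the smallest that 3 pairs allow). The length used for levels per kilobase was varied after seeing the data. Depth limits genes with few reads, such as SLC7A8.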
